A study of Mus musculus with 6 samples.

Results

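The anti-Rtl1 miRNAs described here are the mature miRNAs of 5 hairpins (miR-127, miR-136, miR-431, miR-433 and miR-434) that lie on the strand opposite the Rtl1 gene in the imprinted Dlk1-Dio3 region of mouse chromosome 12. Members were chosen by exact name, both arms of each hairpin, which gave 10 of the 1915 mature miRNAs listed, and all 10 were among the 1120 miRNAs that passed the filter of at least 10 reads summed over the libraries. They were measured by small RNA-seq in 6 whole-brain libraries, 3 from female and 3 from male embryos of wild-type C57BL/6 mice at E15.5, and all share genotype, stage and tissue. Each library was made from RNA pooled from 2 to 3 embryos, so a library is the replicate and the spread between single embryos was not measured. The comparison that the design implies is male against female.

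The Dlk1-Dio3 region carries protein-coding genes read from the paternal chromosome and noncoding RNAs read from the maternal one. Rtl1 is a paternally expressed gene derived from a retrotransposon and is best known for its role in the placenta. A maternally expressed transcript, Rtl1as, runs through Rtl1 in the opposite direction and is the precursor of these hairpins, so that its miRNAs pair with Rtl1 mRNA without mismatch and can direct its cleavage. A hairpin yields a 5p and a 3p arm from 1 precursor, and usually 1 of the arms is loaded into the silencing complex far more often than the other.

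The mature sequences are shown because each is both a regulator with its own seed and an exact complement of Rtl1. They are the RefSeq sequences of the GRCm38.p6 build, written 5′ to 3′ in Rtl1as order from the upstream hairpin, with the seed (bases 2 to 8) in capitals.
mmu-miR-431-5p: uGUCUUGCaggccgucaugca
mmu-miR-431-3p: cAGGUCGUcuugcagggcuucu
mmu-miR-433-5p: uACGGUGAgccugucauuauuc
mmu-miR-433-3p: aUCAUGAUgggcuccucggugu
mmu-miR-127-5p: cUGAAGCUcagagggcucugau
mmu-miR-127-3p: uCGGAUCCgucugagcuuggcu
mmu-miR-434-5p: gCUCGACUcaugguuugaacca
mmu-miR-434-3p: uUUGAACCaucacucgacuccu
mmu-miR-136-5p: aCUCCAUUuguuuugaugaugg
mmu-miR-136-3p: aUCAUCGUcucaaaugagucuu

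No seed was shared, either among the 10 arms or with any other of the 1679 mature miRNAs that RefSeq lists, so the group is a family by position and not by target sequence. None of the 10 sequences contained another listed miRNA or was contained in one. The 5p and 3p arms of miR-431 hold the same run of 10 bases, GUCUUGCAGG, and those of miR-434 the same run of 9, UUUGAACCA. The other 3 hairpins share at most 5 bases in a row between their arms. GC content was lowest in both arms of miR-136, at 36.4%, and highest in mmu-miR-127-3p and mmu-miR-431-3p, at 59.1%.

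In mm9, the build the authors mapped to, the coding part of Rtl1 is 1 exon of 5232 bases on the minus strand at chr12:110828382-110833613, and all 5 hairpins lie inside it on the plus strand. Mir431 is at chr12:110828657-110828747, Mir433 at chr12:110829925-110830048, Mir127 at chr12:110831042-110831138, Mir434 at chr12:110832716-110832809 and Mir136 at chr12:110833527-110833608. Mir432, not a member here, is also annotated inside it on the plus strand, at chr12:110833166-110833240. No read was listed for mmu-miR-432 in any library, a miRNA named after its values were seen. The site opposite mmu-miR-136-3p begins 17 bases into the Rtl1 coding sequence and that opposite mmu-miR-431-5p 4925 bases into it, so the hairpins span nearly the whole reading frame. Among 55443 protein-coding transcripts, the exact complement of each of the 10 arms was found in transcripts of Rtl1 and of no other gene. Rtl1 mRNA itself was not analysed here.

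Levels are given as CPM, the reads of a miRNA per 1000000 reads assigned to miRNAs in its library. No spike-in is stated, so a CPM is a share of reads and not a number of molecules. Totals ranged from 14802675 to 59362011 reads. Female library 2 stood apart, with the highest total, 660 miRNAs detected against 790 to 915 in the others, and a median of 1846.5 reads over those detected against 218 to 352. The 10 arms together took 16165, 14837 and 13496 CPM in female libraries 1, 2 and 3, and 22886, 20316 and 19544 CPM in male libraries 1, 2 and 3. Every male library was above every female library, with means of 20915 ± 1750 (SD, n = 3) against 14833 ± 1334 CPM (SD, n = 3). The males were 1.41-fold higher on the scale of the mean log2 level (two-sided exact permutation test, p = 0.1, the smallest that 3 against 3 allows). In pooled tissue, fewer cells of a type and less RNA per cell cannot be told apart. The difference was 1.29-fold under TMM scaling, edgeR's correction for library composition, and the mean of the 10 log2 levels, which gives each arm equal weight, was 0.05 lower in males (exact permutation p = 0.8). The sum follows the most abundant arms, and the arms did not move together.

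Levels of single arms ran from 9.34 CPM to 7436 CPM. By mean log2 CPM the order was mmu-miR-434-3p, mmu-miR-127-3p, mmu-miR-433-3p, mmu-miR-431-5p, mmu-miR-434-5p, mmu-miR-127-5p, mmu-miR-136-3p, mmu-miR-433-5p, mmu-miR-431-3p and mmu-miR-136-5p. Among all 1915 miRNAs, mmu-miR-434-3p ranked 30 by mean CPM and mmu-miR-136-5p ranked 326. Of the 9 pairs of neighbours in this order, 5 stood in the same order in all 6 libraries, with gaps of 1.91-fold to 2.61-fold (two-sided exact permutation of signs, p = 0.0312, the smallest possible, and 0.0562 after Benjamini-Hochberg adjustment over 9 pairs). The smallest adjusted p over the 9 pairs was 0.0562 (exact permutation), so no pair passed the threshold used for the sex test. Among the 3 most abundant arms the order did not hold in every library. mmu-miR-434-3p exceeded mmu-miR-127-3p 1.26-fold in 5 of 6 libraries (exact permutation adjusted p = 0.0938). mmu-miR-127-3p exceeded mmu-miR-433-3p 1.26-fold in 5 of 6 (exact permutation adjusted p = 0.141). In contrast mmu-miR-433-3p was above mmu-miR-431-5p in all 6 libraries, 2.28-fold. Likewise mmu-miR-127-5p and mmu-miR-136-3p differed 1.25-fold (exact permutation adjusted p = 0.12). The bottom pair changed order between the sexes: mmu-miR-136-5p was above mmu-miR-431-3p in all 3 female libraries and below it in all 3 male libraries (exact permutation adjusted p = 0.469 over all 6).

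**Figure D1:**
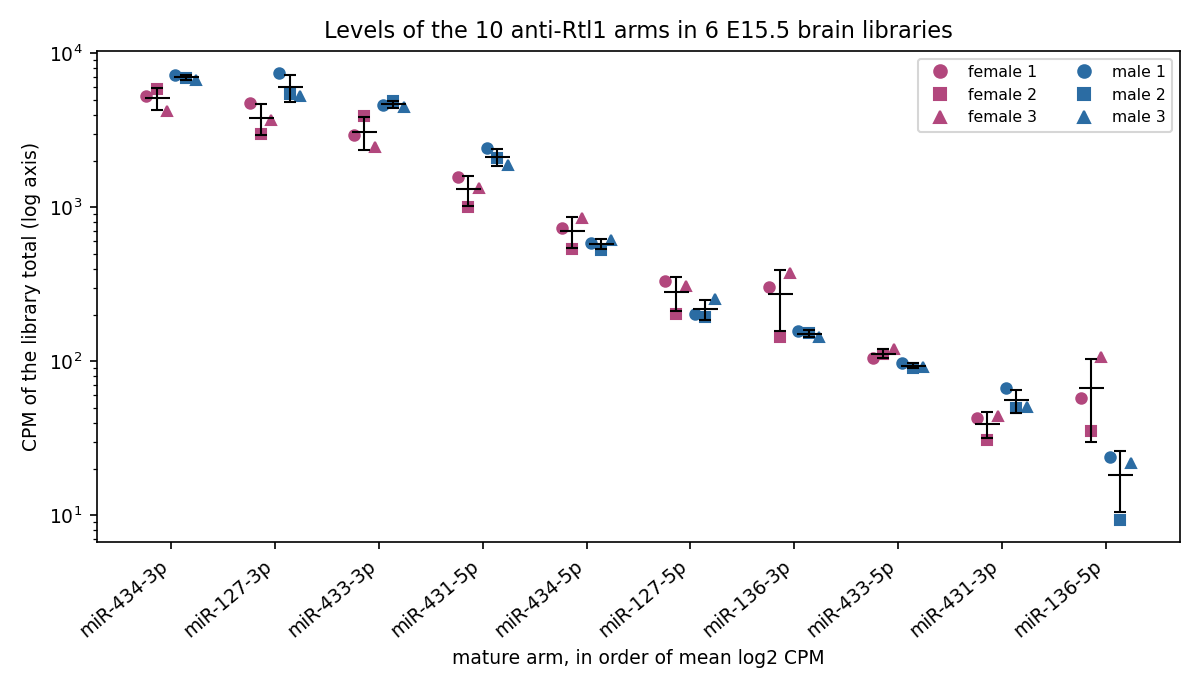
CPM of the library total (log axis) for each arm in each library, females in pink and males in blue, with horizontal bars at the mean and error bars of 1 SD (n = 3 per sex). The 4 most abundant arms and miR-431-3p are higher in every male library, and miR-433-5p and miR-136-5p are higher in every female library.

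Sex differences were tested with edgeR's quasi-likelihood test on TMM-scaled counts, with Benjamini-Hochberg adjustment over the 1120 miRNAs and log2 fold changes as male over female. Both arms of miR-136 were lower in males, mmu-miR-136-5p 3.99-fold and mmu-miR-136-3p 1.95-fold, and the other 8 arms did not pass the threshold of 0.05. Across all miRNAs tested, 95 of 1120 passed, or 8.48%, and 59 of them were female-biased, or 5.27%. The 5 arms with more reads had a median log2 fold change of 0.45 and the 5 with fewer reads a median of -0.40, while the median over all 10 was -0.04 and over all 1120 was -0.02. In CPM of the library total, 5 arms had every male library above every female one, and 2 the reverse. After TMM scaling, 3 arms were higher in every male library and 4 higher in every female library. The share over all miRNAs was not counted on the TMM scale, so these counts have no background to be set against. In CPM of the library total, over all miRNAs tested, 15.4% had males above without overlap and 8.57% had females above.

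**Figure D2:**
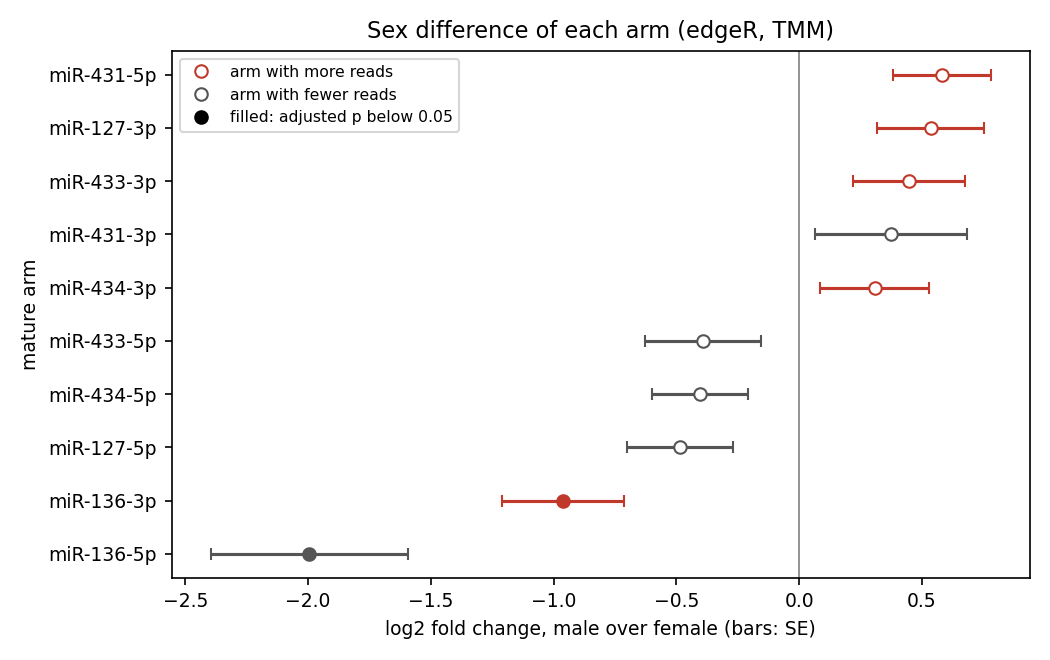
Log2 fold change, male over female, for each arm from edgeR's quasi-likelihood test; bars are 1 SE, filled points have an adjusted p below 0.05, and red marks the arm with more reads in its hairpin. The miR-136 arms lie at -1.996 and -0.96, while the more abundant arms of the other 4 hairpins lie between 0.31 and 0.58.

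miR-136 is the hairpin nearest the start of the Rtl1 reading frame, and its arms were among the least abundant. mmu-miR-136-5p had 57.5, 35.4 and 107 CPM in female libraries 1, 2 and 3, and 24.03, 9.34 and 21.8 CPM in male libraries 1, 2 and 3. All females were above all males, and the female libraries differed among themselves by more than the gap between the closest female and male. These levels rest on 851, 2099 and 3828 reads in females and 449, 410 and 514 reads in males. The log2 fold change was -1.996 ± 0.40 (SE, adjusted p = 0.00126, edgeR). It kept its sign in 16 of 16 alternative fits and passed in 15, the exception being the fit without male library 1 (-2.16, adjusted p = 0.0716, edgeR), in which no arm passed.

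mmu-miR-136-3p, the more abundant arm of the same hairpin, had 304, 145 and 374 CPM in female libraries 1, 2 and 3, and 158, 153 and 143 CPM in the males. Female library 2 fell within the male range, so that the sexes overlapped on this scale, although they did not after TMM scaling. The log2 fold change was -0.96 ± 0.25 (SE, adjusted p = 0.0127, edgeR). This arm passed in 10 of 16 alternative fits. The call was lost with library-size scaling (-0.86, adjusted p = 0.0741) and without female library 1 (-0.88, 0.0548), female library 3 (-0.68, 0.141) or male library 1 (-0.93, 0.27), all by edgeR. It was also lost with the GC offset described below (-0.45, adjusted p = 0.25, edgeR), and with that offset and a replicate block (-0.43, adjusted p = 0.36, edgeR). Female library 3 held the highest level of both miR-136 arms, and without it mmu-miR-136-5p was at -1.49 (adjusted p = 0.0435, edgeR).

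miR-127, the hairpin near the middle of the Rtl1 reading frame, is one of the imprinted miRNAs studied longest. mmu-miR-127-3p had 4760, 3001 and 3710 CPM in females and 7436, 5406 and 5315 CPM in males. The sexes did not overlap, female library 2 was the lowest and male library 1 the highest. Its log2 fold change of 0.54 ± 0.22 did not pass (SE, adjusted p = 0.157, edgeR). The 5p arm had 334, 203 and 310 CPM in females and 204, 195 and 254 CPM in males. Here the sexes overlapped, with female library 2 among the males, and the log2 fold change had the opposite sign at -0.49 ± 0.22 (SE, adjusted p = 0.205, edgeR). Without female library 2, mmu-miR-127-5p passed at -0.63 (adjusted p = 0.0125, edgeR).

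miR-434 gave the most abundant arm of the group. mmu-miR-434-3p had 5302, 5881 and 4198 CPM in females and 7277, 6927 and 6727 CPM in males. Males were above females without overlap on this scale, which was not so after TMM scaling, and the log2 fold change was 0.31 ± 0.22 (SE, adjusted p = 0.48, edgeR). It was 0.49 without female library 2 (adjusted p = 0.0876, edgeR) and 0.17 without female library 3 (adjusted p = 0.727, edgeR). mmu-miR-434-5p had 730, 535 and 847 CPM in females and 590, 530 and 611 CPM in males. The sexes overlapped through female library 2 on this scale, while after TMM scaling all females were above all males, and the log2 fold change was -0.40 ± 0.20 (SE, adjusted p = 0.269, edgeR). It passed without female library 2 (-0.52, adjusted p = 0.0351, edgeR) and was at -0.27 without female library 3 (adjusted p = 0.54, edgeR).

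miR-433 showed the same opposition of arms. mmu-miR-433-3p had 2956, 3891 and 2448 CPM in females and 4618, 4878 and 4454 CPM in males. All males were above all females on this scale but not after TMM scaling, the female spread was the wider, and the log2 fold change was 0.45 ± 0.23 (SE, adjusted p = 0.313, edgeR). Leaving out female library 2, the highest female for this arm, gave 0.72 and a pass (adjusted p = 0.00472, edgeR), and leaving out female library 3, the lowest, gave 0.28 (adjusted p = 0.61, edgeR). mmu-miR-433-5p had 105, 112 and 120 CPM in females and 97.8, 90.9 and 92.4 CPM in males. Its libraries differed least of all 10 arms, 1.32-fold from lowest to highest, and all females were above all males. The log2 fold change was -0.39 ± 0.24 (SE, adjusted p = 0.412, edgeR).

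miR-431, the hairpin nearest the end of the Rtl1 reading frame, was the one whose 5p arm was the more abundant, and its arms, like those of miR-136, shared a sign. mmu-miR-431-5p had 1575, 1004 and 1339 CPM in females and 2415, 2077 and 1877 CPM in males. Males were above females without overlap, and the log2 fold change was 0.58 ± 0.20 (SE, adjusted p = 0.0795, edgeR). Over 16 alternatives the adjusted p ranged from 0.00146 to 0.976, and 6 of them passed. mmu-miR-431-3p had 43.1, 30.7 and 44.0 CPM in females and 66.8, 49.98 and 50.2 CPM in males. This arm was also higher in every male library, and its log2 fold change of 0.38 ± 0.31 did not pass (SE, adjusted p = 0.501, edgeR).

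The number of arms called depended on the count model. DESeq2 with 1 RUVr factor, an estimated factor of unwanted variation like the one in the study's methods, called 8 of 10 arms, 4 male-biased and 4 female-biased, against 20.2% of all miRNAs. The male-biased arms in that fit were mmu-miR-127-3p, mmu-miR-431-5p, mmu-miR-433-3p and mmu-miR-434-3p, each the more abundant arm of its hairpin, and the female-biased arms were both arms of miR-136, mmu-miR-127-5p and mmu-miR-434-5p. edgeR with 1 RUVr factor called 4 of 10 against 13.1%, adding mmu-miR-431-5p (adjusted p = 0.0414) and mmu-miR-433-3p (adjusted p = 0.0487) to the miR-136 arms. Without female library 2, edgeR called 5 of 10 against 18.3%.

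GC content moved with the sex difference. Over the 474 miRNAs that averaged 100 or more reads and had a RefSeq sequence, Pearson's r between GC content and log2 fold change was 0.32, and over the 10 arms it was 0.82, as descriptions over sequences that share the same 6 libraries. Among the 10, both miR-136 arms held the lowest GC content and the lowest log2 fold changes. Arms of equal GC content could differ in sign. At 54.5%, mmu-miR-127-5p was at -0.49 and mmu-miR-433-3p at 0.45, and at 45.5%, mmu-miR-433-5p was at -0.39 and mmu-miR-434-3p at 0.31. miRNAs with a GC content below 40% had a median log2 fold change of -0.82 (n = 84), the class that holds both miR-136 arms, and those of 50% or more had a median of 0.18 (n = 230). When each library was given an offset fitted to GC content, edgeR called 2 of 10 arms against 6.7% of all miRNAs, mmu-miR-136-5p at -1.47 ± 0.36 (SE, adjusted p = 0.0123) and mmu-miR-127-5p at -0.85 ± 0.22 (SE, adjusted p = 0.0178). Under that offset mmu-miR-136-3p was at -0.45 (adjusted p = 0.25, edgeR), mmu-miR-127-3p at 0.13, mmu-miR-431-5p at 0.19, mmu-miR-433-3p at 0.14, mmu-miR-433-5p at -0.28 and mmu-miR-431-3p at -0.04. In contrast mmu-miR-434-3p was at 0.41 and mmu-miR-434-5p at -0.53, farther from 0 than without the offset, as was mmu-miR-127-5p. The other 7 arms, both of miR-136 among them, were nearer to 0 with the offset. The offset was fitted without a term for sex and with these arms included. It therefore also takes up any sex difference that goes with GC content, and the 2 cannot be told apart by it.

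**Figure D3:**
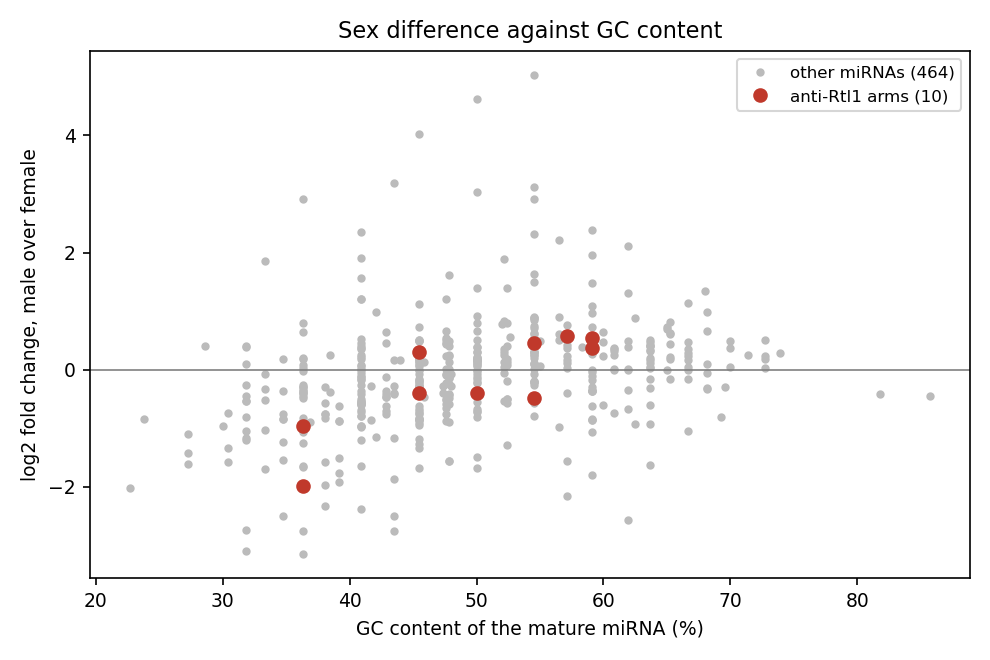
Log2 fold change, male over female (edgeR), against the GC content of the mature miRNA in percent, for 464 other miRNAs averaging 100 or more reads (grey) and the 10 anti-Rtl1 arms (red). The miR-136 arms lie lowest among the red points, at 36.4% GC, and the arms at 59.1% lie above 0.

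Markers of other tissues moved with sex as well. The summed level of 6 miRNAs of neurons and neural progenitors was 226180 to 267295 CPM in females and 180377 to 208861 CPM in males. As a sum they were abundant in every library, as a brain label requires. In contrast, 4 muscle miRNAs summed to 388 to 1180 CPM in females and 5497 to 6139 CPM in males, 6 epithelial miRNAs to 429 to 1133 against 7990 to 8284 CPM, and 5 mesenchymal miRNAs to 4515 to 12642 against 19307 to 23097 CPM. By edgeR, 4 of 4, 5 of 6 and 4 of 5 of these were male-biased. Female-biased were 3 of 6 miRNAs of neurons and neural progenitors, 2 of 2 endothelial and 2 of 4 hindbrain and spinal cord miRNAs. Of the red blood cell miRNAs 0 of 3 passed (0 at an unadjusted p below 0.05 and 0 by DESeq2). None of the markers was at 0 in all libraries. The part of tissue composition in the differences of the anti-Rtl1 arms was not tested.

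Arm ratios compare the reads of the 3p and 5p arms within a library and so do not depend on how libraries are scaled. The 3p arm was the more abundant in miR-127, miR-136, miR-433 and miR-434 and the 5p arm in miR-431, and this held in all 6 libraries. In 4 of the 5 hairpins the mean ratio of 3p to 5p was higher in males.

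For miR-127, 3p reads outnumbered 5p reads 14.3, 14.82 and 11.98 times in females and 36.5, 27.7 and 20.9 times in males. The sexes did not overlap, and the 3p arm made up 93.1% ± 0.740 (SD, n = 3) of the hairpin's reads in females and 96.4% ± 0.950 (SD, n = 3) in males. For miR-136 the ratio was 5.28, 4.09 and 3.50 in females and 6.57, 16.4 and 6.57 in males. Again the sexes did not overlap, and male library 2 stood far above the others.

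miR-433 had ratios of 28.2, 34.8 and 20.4 in females and 47.2, 53.7 and 48.2 in males, without overlap. In miR-434, ratios were 7.27, 11.0 and 4.96 in females and 12.3, 13.1 and 11.0 in males. Female library 2 of miR-434 just passed the lowest male, so the sexes overlapped there. For miR-431 the 5p arm outnumbered the 3p arm 36.5, 32.7 and 30.4 times in females and 36.2, 41.6 and 37.4 times in males, and the sexes overlapped.

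**Figure D4:**
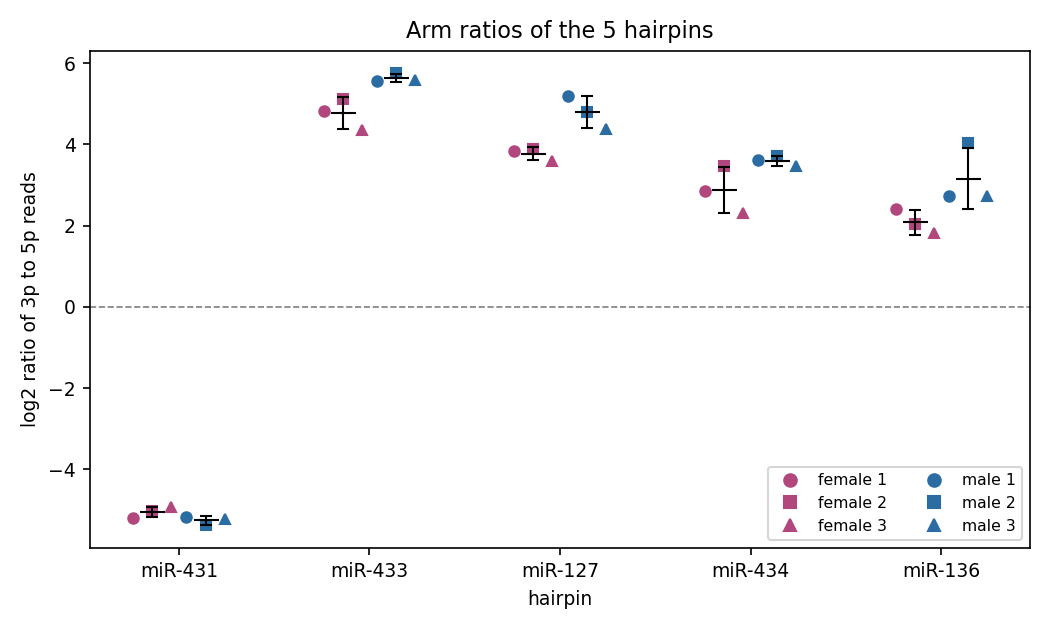
Log2 ratio of 3p to 5p reads in each library for the 5 hairpins, in their order on the Rtl1as strand, females in pink and males in blue, with the mean and 1 SD (n = 3 per sex). Males lie above females without overlap in miR-433, miR-127 and miR-136, and miR-431 alone lies below 0.

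The log2 ratio of 3p to 5p differed between males and females by 1.02 ± 0.30 in miR-127, 1.07 ± 0.57 in miR-136, -0.21 ± 0.27 in miR-431, 0.87 ± 0.30 in miR-433 and 0.72 ± 0.35 in miR-434 (SE, edgeR's interaction of arm and sex). None passed after adjustment over 364 hairpins, with adjusted p-values of 0.465, 0.79, 0.898, 0.482 and 0.781 (edgeR). The same test called 0 of 364 hairpins, or 0%, with 26 at an unadjusted p below 0.05, among them miR-127 (unadjusted p = 0.0125) and miR-433 (unadjusted p = 0.0233), in edgeR's fit over all hairpins. limma on the log2 ratios also called 0 of 364, with 41 at an unadjusted p below 0.05, and gave miR-127 an adjusted p of 0.107. Simulated data of this size had changes placed on hairpins drawn at random, which needed only 10 reads summed per arm. In them the edgeR test recovered 0% of changes of 2 on the log2 scale and limma 25%. Recovery was not measured separately for hairpins as abundant as these 5, and a missed threshold does not show that ratios were equal. Ratios did not overlap between the sexes in 3 of 5 hairpins, against 17.6% of all 364.

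The opposition of arms was also counted over other hairpins. Among the 155 other hairpins whose arms both averaged 100 or more reads, 31 (20.0%) had a male-over-female log2 fold change above 0 in the more abundant arm and below 0 in the other, as did 3 of the 5 anti-Rtl1 hairpins (miR-127, miR-433 and miR-434). The more abundant arm had the higher log2 fold change in 46.5% of those 155 hairpins and in all 5 of the anti-Rtl1 hairpins. These shares are a description, since the arms of a hairpin and the hairpins share the same libraries. GC content differed by 9.09 percentage points between the arms of miR-433, 4.55 in miR-127 and 0 in miR-136, and it was the lower by 4.55 points in the 3p arm of miR-434. With the GC offset the ratio difference of miR-433 was 0.42, that of miR-127 0.97, that of miR-136 1.07 and that of miR-434 0.95 on the log2 scale.

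Coherence was described by the ratio of each pair of arms across the 6 libraries. Over all 45 pairs, the highest ratio exceeded the lowest 1.18-fold to 22.8-fold, with a median of 2.63-fold. The steadiest pair was mmu-miR-127-3p over mmu-miR-431-5p, which put the 6 libraries in the same order and kept a ratio of 2.60 to 3.08. Next came mmu-miR-434-3p over mmu-miR-433-3p, at 1.42 to 1.79. The ratio that varied most was that of mmu-miR-136-5p to mmu-miR-433-3p, with a 22.8-fold range. In CPM of the library total, female library 2 was the lowest female for 7 of the 10 arms and the highest for 2, mmu-miR-433-3p and mmu-miR-434-3p.

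For 15 pairs (both arms of a hairpin, or 2 of the more abundant arms), at least 1 arm separated the sexes completely, so no correlation over the 6 libraries as they stand is given. After the mean of each sex was taken from the log2 CPM, 7 of the 15 pairs had a Pearson's r above 0 and 8 below it, from -0.94 to 0.95 with a median of -0.06. It was 0.95 for mmu-miR-127-3p with mmu-miR-431-5p, 0.92 for mmu-miR-433-3p with mmu-miR-434-3p, -0.06 for mmu-miR-127-3p with mmu-miR-434-3p and -0.94 for mmu-miR-136-3p with mmu-miR-433-3p. Between the arms of a hairpin it ran from -0.86 in miR-434 to 0.90 in miR-431. These values describe 6 libraries that share their total with every arm, have 4 residual degrees of freedom and include female library 2, and they were not tested. The r of -0.94 and of -0.86 rest mostly on the female libraries, since the males varied little. mmu-miR-136-3p ranged from 145 to 374 CPM in females and from 143 to 158 CPM in males. mmu-miR-434-3p ranged from 4198 to 5881 CPM in females and from 6727 to 7277 CPM in males.

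**Figure D5:**
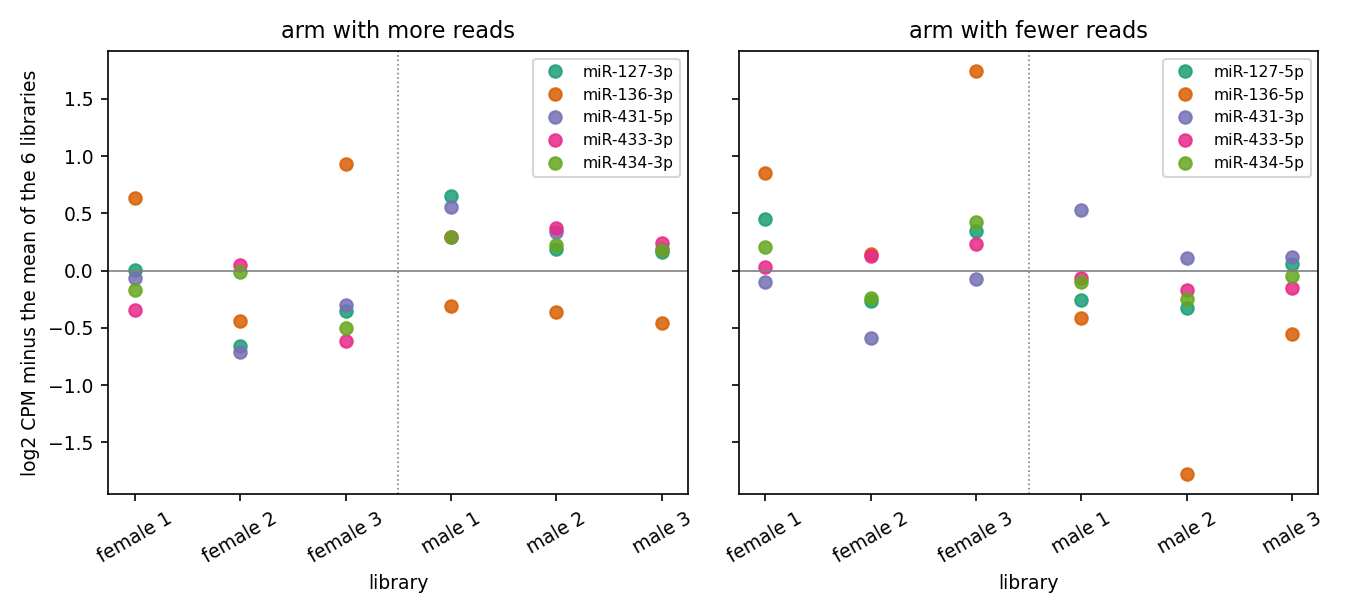
Log2 CPM of each arm minus its mean over the 6 libraries, by library, for the more abundant arm of each hairpin (left) and the less abundant arm (right). In males 4 of the 5 more abundant arms lie above 0 and miR-136-3p below, and female libraries 1 and 3 carry the highest miR-136 levels.

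The rest of the Dlk1-Dio3 region gives the setting. The anti-Rtl1 arms made up 22.5% to 29.2% of the reads on the region's listed miRNAs in female libraries and 30.3% to 32.8% in male libraries, without overlap. Over all 1120 miRNAs tested, edgeR called 36 male-biased and 59 female-biased. On the Meg3 and Rtl1 side of the region, 3 of 13 tested miRNAs were male-biased and 0 female-biased, with a median log2 fold change of 0.75. These 3, named after their values were seen, were mmu-miR-673-5p (1.09, adjusted p = 7e-04), mmu-miR-493-5p (0.98, adjusted p = 0.0026) and mmu-miR-337-5p (0.75, adjusted p = 0.0115), all by edgeR. That median counts arms with few reads, such as mmu-miR-3070-3p (41 reads in all, log2 fold change 7.35) and mmu-miR-540-5p (308 reads in all, -1.76). Of these 13, DESeq2 called 5, against 129 of all 1120. DESeq2 with 1 RUVr factor called 6 male-biased and 0 female-biased, against 124 and 102 of all 1120. Downstream, 0 of 6 miRNAs of Rian passed in edgeR (0 at an unadjusted p below 0.05, 0 by DESeq2 and 1 by DESeq2 with 1 RUVr factor). Of 72 tested miRNAs of Mirg, 1 was male-biased and 7 female-biased, with a median of 0.04, whereas DESeq2 with 1 RUVr factor called 10 in each direction.

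Among the hairpins nearest Rtl1, mmu-miR-540-3p was at 126 ± 9.06 CPM in females and 214 ± 26.8 CPM in males (SD, n = 3; log2 fold change 0.64, adjusted p = 0.058, edgeR). mmu-miR-665-3p was at 73.7 ± 11.7 CPM in females and 132 ± 9.34 CPM in males (SD, n = 3; log2 fold change 0.72, adjusted p = 0.0671, edgeR). No read was listed for mmu-miR-665-5p or for either arm of miR-3071, which lies opposite miR-136, and a count of 0 allows up to 0.0505 to 0.203 CPM depending on the library (3 reads of the total, counting error only). miR-3070 reads were few: 13 were listed for mmu-miR-3070-5p in male library 3, 41 for mmu-miR-3070-3p in male library 1, and 150 and 20 for mmu-miR-3070-2-3p in female library 2 and male library 1. The 3 most abundant Mirg miRNAs, mmu-miR-487b-3p (0.03), mmu-miR-541-5p (0.17) and mmu-miR-411-5p (-0.51), had log2 fold changes whose adjusted p-values were 0.969, 0.768 and 0.204 (edgeR).

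Outside Dlk1-Dio3, the 5 miRNAs whose log2 CPM followed the summed level of the 10 arms most closely over the 6 libraries were mmu-miR-1981-3p, mmu-miR-760-3p, mmu-miR-877-3p, mmu-miR-99b-3p and mmu-miR-652-3p, with Pearson's r of 0.992, 0.987, 0.979, 0.977 and 0.977 among 455 candidates. For example, mmu-miR-760-3p had 182, 154 and 148 CPM in females and 260, 215 and 210 CPM in males. These values describe a likeness over 6 libraries chosen as the highest of many. The summed level and each of the 5 miRNAs were higher in every male library than in every female library. The r therefore takes in the split between the sexes, and likeness within a sex was not tested. Of the 5, mmu-miR-877-3p was the least abundant in every library. None of the 5 passed the sex test (adjusted p from 0.174 to 0.48, edgeR).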

How the data were processed

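Small RNA-seq (Illumina TruSeq, single-end) was analysed in 6 libraries. The authors trimmed adaptors (cutadapt 1.15), mapped reads (Bowtie 1.2.1, mm9) and quantified known miRNAs with miRDeep2, and they deposited raw read counts per mature miRNA, without normalization. No molecular identifiers are stated, so a count is of reads and intervals cover counting error only.

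CPM are of the library total. Models were fitted in R 4.3.3 (edgeR 4.0.16, DESeq2 1.42.0, limma 3.58.1). Exact tests were written out in Python 3.11.15 with NumPy 2.4.6, and correlations used SciPy 1.17.1. After removing miRNAs whose reads summed to under 10, sex was tested by the quasi-likelihood test of edgeR with TMM scaling, Benjamini-Hochberg adjustment and a threshold of 0.05. SE is the absolute log2 fold change over the square root of F. Arm ratios were tested as an arm by sex interaction with a term for each library. RUVr was written out from deviance residuals, and the GC offset is a loess curve per library (951 of 1120 miRNAs, 84.9%, had a RefSeq sequence). On simulated data edgeR recovered 19.2% of changes of 1 and 43.3% of changes of 2 on the log2 scale for sex, with 6.10% false calls. The changes were placed on miRNAs drawn at random from all that passed the filter of 10 summed reads. Recovery at the levels of the 10 arms was not measured separately.

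The members, lists and tests were chosen with earlier results of these data known. Named were all 10 members, the hairpins nearest Rtl1, the 3 most abundant Mirg miRNAs and the 5 miRNAs most like the summed level. Alternatives are given in the closing section. The study's RNA-seq and RT-qPCR were not used here.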

Additional observations from a re-analysis of the deposited data

How the results depend on the processing

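Of the 10 arms, 2 were called for sex with edgeR, 4 with DESeq2, 4 with edgeR and 1 RUVr factor and 8 with DESeq2 and 1 RUVr factor, and leaving out 1 library gave 0 to 5, with 0 without male library 1, 1 without female library 3 and 5 without female library 2. Over all miRNAs the counts were 95, 129, 147 and 226 in that order, and 30 to 203 with 1 library left out, with 30 without male library 1, 60 without female library 3 and 203 without female library 2. The sign of each arm's log2 fold change was the same in all 16 alternatives except for mmu-miR-431-3p, which was at -0.0356 with the GC offset and -0.00545 with the replicate block and GC offset. No arm ratio passed in any of 12 alternatives. The log2 difference of the summed level was 0.50, 0.37 with TMM and 0.43 with upper-quartile scaling (exact permutation p = 0.2). It was 0.50 with the replicate block and 0.43 to 0.56 with 1 library left out. As the mean of the log2 levels, where less abundant arms weigh as much as the others, it was -0.0484. mmu-miR-431-3p over mmu-miR-136-5p was -0.63 (log2) in females alone. Deviations from the mean of each sex had r of -0.08, 0.03 and 0.16 between same-numbered female and male libraries, over 553 miRNAs. Between differently numbered ones r was -0.18 to 0.15. With 3 libraries per sex, these values do not settle whether the numbers pair the libraries. With the replicate block, 2 of 10 arms and 92 miRNAs were called. The least abundant arm had at least 410 reads in each library, and 3 libraries per sex allow no exact p below 0.1.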
